A study of Mus musculus with 3 samples.

Results

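Accessible regions of 10 genes of the transforming growth factor beta (TGF-beta) pathway were examined: the ligand genes Tgfb1, Tgfb2 and Tgfb3, the receptor genes Tgfbr1, Tgfbr2 and Tgfbr3, the signal transducer Smad3 and its inhibitor Smad7, and the latent TGF-beta binding protein genes Ltbp1 and Ltbp2. A region belonged to a gene when that gene's body was the nearest protein-coding gene body to its midpoint, at most 50 kb away. This gave 172 of the 95842 regions in the deposited table. The regions come from ATAC-seq, in which the transposase Tn5 cuts open chromatin, so a count measures how accessible a region is and not how strongly a gene is transcribed.

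The study isolated Epcam+ and Epcam- cells from mouse skin squamous cell carcinomas (SCC) induced with DMBA, a mutagen, and TPA, a tumour promoter. The genotype is K14Cre;RYFP for the group labelled control Epcam+. It is K14Cre;Fat1fl/fl;RYFP for the Epcam+ and the Epcam- group labelled Fat1 cKO, and the background is mixed throughout. All 3 groups therefore carry the RYFP allele and Cre under the keratin 14 promoter, which is active in the basal layer of the epidermis. Conditional deletion of the atypical cadherin Fat1 is limited to cells in which that promoter was active and to their descendants. The sources used here do not give the animals' age or number, or say whether tumours were pooled. From each group 100000 sorted cells went into the Tn5 reaction (30 minutes, 37 degrees), and a size selection kept fragments between 200 and 800 bp. Each group is 1 library, so there are no replicates and no test between conditions.

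Count columns are named below by their labels, in the order control Epcam+, Fat1 cKO Epcam+, Fat1 cKO Epcam-, and hold 4335304, 3812880 and 5485317 nuclear counts. In this order the 172 regions held 9454, 7907 and 9956 counts, or 0.218%, 0.207% and 0.182% of the nuclear counts. For a pair of libraries the peak calls and the counts disagreed. Over the whole table, 9510 of the 10758 regions called a peak only under the name Fat1 cKO Epcam- had their highest CPM in the count column named control Epcam+. Conversely, 16893 of the 18422 called only under control Epcam+ were highest in the column named Fat1 cKO Epcam-, whereas 5158 of the 5353 called only under Fat1 cKO Epcam+ were highest in their own. The TGF-beta regions followed the same pattern. Of the 24 TGF-beta regions that the authors called a peak only under the name Fat1 cKO Epcam-, 24 had their highest CPM in the count column named control Epcam+. Of the 22 called only under control Epcam+, 17 were highest in the column named Fat1 cKO Epcam- and 1 in its own. The 9 called only under Fat1 cKO Epcam+ were all highest in their own column. Summed accessibility of the Epcam gene was 67.7, 224 and 132 CPM (counts scaled to a library of 1000000) in the 3 columns, lowest under a name that carries Epcam+. Fat1 regions summed to 158, 191 and 249 CPM, which do not check the deletion, because the sources used here do not say which exons were deleted. The 33 Y chromosome regions summed to 75.2, 59.6 and 217 CPM, although both Fat1 cKO titles begin with the same code, whose meaning the labels do not give. Every direction below is therefore one between column names. If the names control Epcam+ and Fat1 cKO Epcam- were exchanged on the counts, the first comparison (Fat1 cKO Epcam+ over control Epcam+) would be Fat1 cKO Epcam+ over Fat1 cKO Epcam-, the second (Fat1 cKO Epcam- over Fat1 cKO Epcam+) would be control Epcam+ over Fat1 cKO Epcam+, and the third (Fat1 cKO Epcam- over control Epcam+) would turn into its inverse.

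TGF-beta ligands are secreted in a latent form, in which the growth factor stays bound to its own propeptide. Latent TGF-beta binding proteins such as Ltbp1 tether this complex to the extracellular matrix, from which integrins and proteases release it, whereas Ltbp2 is a matrix protein of the same family that does not bind latent TGF-beta. The active ligand binds the receptor kinase Tgfbr2, which phosphorylates Tgfbr1. Tgfbr3, or betaglycan, is a co-receptor that presents ligand and is needed most for Tgfb2. Tgfbr1 then phosphorylates Smad2 and Smad3, which enter the nucleus with Smad4, while Smad7 blocks the receptor and is itself induced by the pathway. In skin, TGF-beta restrains the growth of keratinocytes and is also a well known inducer of the epithelial to mesenchymal transition in carcinoma cells.

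Start sequences of 4 genes to which the results return are shown first, because start regions and regions away from them are set side by side there. Each is the RefSeq window (GRCm38.p6) from 250 bases before to 50 bases after an annotated start, written 5′ to 3′ on the gene's strand. They lie at chr12:84876442-84876741 on the minus strand (Ltbp2), chr17:75005279-75005578 and chr17:75178531-75178830 on the plus strand (the upstream and downstream starts of Ltbp1), chr9:116175314-116175613 on the minus strand (Tgfbr2) and chr1:186705940-186706239 on the minus strand (Tgfb2). Capitals mark matches on either strand to CAGAC, a Smad binding element. They also mark CACCTG, an E-box of Snail and Zeb factors, on either strand. At Ltbp1 they mark TGACGTCA, a cyclic AMP response element, and at Tgfb2 a TATA box, searched as TATAAA on the gene's strand.
Ltbp2: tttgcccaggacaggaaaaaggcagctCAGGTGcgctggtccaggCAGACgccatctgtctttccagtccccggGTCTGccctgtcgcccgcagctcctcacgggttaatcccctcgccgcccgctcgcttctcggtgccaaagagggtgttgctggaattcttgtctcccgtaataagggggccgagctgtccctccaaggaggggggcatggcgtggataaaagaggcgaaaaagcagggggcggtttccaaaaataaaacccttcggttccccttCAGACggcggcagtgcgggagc
Ltbp1 upstream start: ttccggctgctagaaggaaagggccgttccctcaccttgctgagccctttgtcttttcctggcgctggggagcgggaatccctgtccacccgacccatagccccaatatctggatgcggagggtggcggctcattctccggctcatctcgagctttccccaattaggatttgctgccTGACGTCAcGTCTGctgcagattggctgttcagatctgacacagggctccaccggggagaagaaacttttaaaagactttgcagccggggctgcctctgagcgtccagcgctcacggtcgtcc
Ltbp1 downstream start: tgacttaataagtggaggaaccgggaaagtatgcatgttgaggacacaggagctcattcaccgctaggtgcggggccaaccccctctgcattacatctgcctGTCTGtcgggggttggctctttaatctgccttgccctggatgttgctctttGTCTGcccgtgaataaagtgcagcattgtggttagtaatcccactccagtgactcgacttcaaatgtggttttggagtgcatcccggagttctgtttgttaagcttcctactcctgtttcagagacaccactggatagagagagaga
Tgfbr2: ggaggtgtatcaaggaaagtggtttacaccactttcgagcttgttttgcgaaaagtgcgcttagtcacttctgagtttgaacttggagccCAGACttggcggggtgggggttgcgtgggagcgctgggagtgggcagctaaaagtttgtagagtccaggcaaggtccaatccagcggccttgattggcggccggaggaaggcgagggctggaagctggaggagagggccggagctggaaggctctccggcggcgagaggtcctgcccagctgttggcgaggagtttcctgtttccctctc
Tgfb2: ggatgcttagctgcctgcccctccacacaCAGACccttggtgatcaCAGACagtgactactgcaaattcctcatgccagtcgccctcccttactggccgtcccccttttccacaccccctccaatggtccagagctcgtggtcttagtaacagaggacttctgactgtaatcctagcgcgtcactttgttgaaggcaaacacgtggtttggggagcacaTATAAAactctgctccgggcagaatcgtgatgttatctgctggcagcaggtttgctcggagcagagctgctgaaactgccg

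The table of start sequences held 9 windows for 7 of the 10 genes. CAGAC was in 6 of the 9 windows, and in 49.6% of the 32851 windows in the table. CACCTG was found only at Ltbp2 among the 9 (20.2% of all windows). The cyclic AMP element was found only at the upstream start of Ltbp1, beginning 73 bases before it (1.79% of all windows). The TATA box was found only at Tgfb2, beginning 31 bases before the start (8.32%). The AP-1 element TGANTCA was in 0 of the 9 windows and in 7.81% of all. The GC box GGGCGG, searched on either strand and not in capitals, was in 4 of the 9 and in 35.7% of all. Capitalised matches do not overlap each other in the printed windows. The motifs were chosen after these sequences had been seen, and a match is a string of letters, not a site shown to be bound.

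Of the 172 regions, 124 lay inside a gene body (72.1%, against 66.1% of all regions with a gene) and 12 within 1 kb of a gene end (6.98%, against 16.9%). Their median width was 671 bp (range 205 to 2473 bp), against 642 bp over all. The authors called a peak under the names control Epcam+, Fat1 cKO Epcam+ and Fat1 cKO Epcam- in 104, 91 and 107 of them. All 3 names carried a call in 63 regions, and 25 regions had none.

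Differences of 2-fold or more were found in both directions, at regions away from the starts. A region passed the size rule when its CPM differed by 2-fold or more between a pair of libraries, with at least 20 counts in 1 of them. In the first comparison 21 of the 124 TGF-beta regions with enough counts were higher (16.9%) and 18 lower (14.5%). Over all regions with a gene the same rule gave 17.6% higher and 15.5% lower, so these shares were near the background. The second gave 23 of 129 higher (17.8%, background 23.4%) and 25 lower (19.4%, background 16.6%). For the third, 26 of 136 were higher (19.1%, background 26.7%) and 31 lower (22.8%, background 18.7%). Setting the median of each chromosome to 0 turned the split of the second comparison to 18 higher and 31 lower, and that of the third to 21 higher and 40 lower. The shares over all regions were not computed with this setting, so these splits have no background to be set against. Median log2 ratios of the TGF-beta regions were -0.05, -0.21 and -0.16 in the 3 comparisons, against 0.01, 0.12 and 0.16 over all. In bulk cells, fewer cells in which a region is open and less opening per cell cannot be told apart.

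Of the 8 regions over an annotated start, 0 passed the rule in any comparison. Over all such regions the rule gave 5.66% higher and 3.77% lower in the first comparison, 8.32% and 4.26% in the second, and 10.7% and 4.29% in the third, so 0 of 8 is near the background. Their log2 ratios spanned -0.34 to 0.64 in the first, -0.94 to 0.87 in the second and -0.90 to 0.66 in the third. Among the 12 regions near a gene end, 1 was higher in the first comparison (background 7.33%) and 0 lower (4.78%), 0 were higher (9.89%) or lower (5.31%) in the second, and 1 was higher (13.2%) and 0 lower (5.24%) in the third. That region lies beyond the end of Smad3 opposite to its start. Away from gene ends, 20 of 112 were higher (17.9%, background 20.9%) and 18 lower (16.1%, background 19.1%) in the first comparison. The second gave 23 of 117 higher (19.7%, background 27.4%) and 25 lower (21.4%, background 20%), and the third 25 of 124 higher (20.2%, background 30.5%) and 31 lower (25.0%, background 22.4%). A higher share away from gene ends than near them was thus also the background. Within single genes, differences in opposite directions occurred: of the genes with at least 5 tested regions, 5 of 7, 4 of 8 and 7 of 8 had regions past the rule in both directions, where 39.3%, 45.9% and 51.4% of all such genes did. This background was not matched for the number of tested regions, which reached 27 at Smad3. Genes with more tested regions have more room for both directions, so no excess can be read from these shares.

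**Figure D1:**
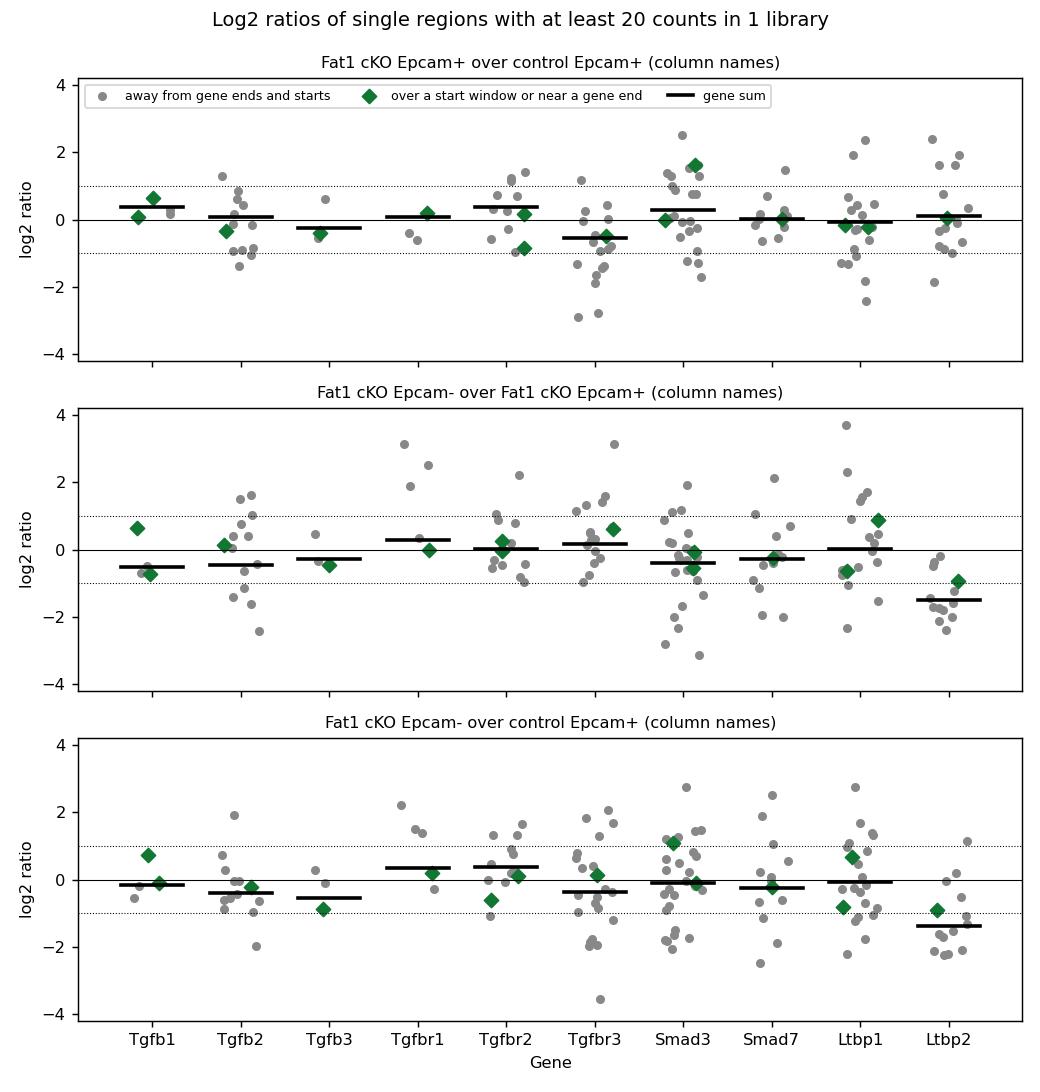
Log2 ratios of single regions (vertical axis) by gene (horizontal axis) in the 3 comparisons of column names, for regions that reach 20 counts in either library. Green diamonds are regions over a start window or within 1 kb of a gene end, grey points are other regions, black bars are gene sums and dotted lines mark 2-fold. The 8 regions over an annotated start stay inside the dotted lines, and the bar of Ltbp2 is the only gene bar beyond them.

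Summed over its regions, 1 of the 10 genes passed the size rule. The first comparison called 0 higher and 0 lower (backgrounds 7.19% and 4.28% of genes). The second called 0 higher (9.50%) and 1 lower (6.28%), and the third 0 higher (12.4%) and 1 lower (6.11%). In each case the lower gene was Ltbp2. Levels per kb of region ranked Tgfb1 first in all 3 libraries, at 32.7, 42.2 and 29.3 CPM per kb. Ltbp2 took place 5 of 10 in the columns labelled control Epcam+ (16.2 CPM per kb) and Fat1 cKO Epcam+ (17.5 CPM per kb), and the last place under Fat1 cKO Epcam- (6.20 CPM per kb). Between neighbours in this order, the 95% Poisson intervals overlapped for 6, 7 and 4 of the 9 pairs, so most middle places are not separate. For 7 of the 10 genes the region with the most counts lay at a start or gene end. The exceptions were Smad7, Ltbp1 and Ltbp2.

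**Figure D2:**
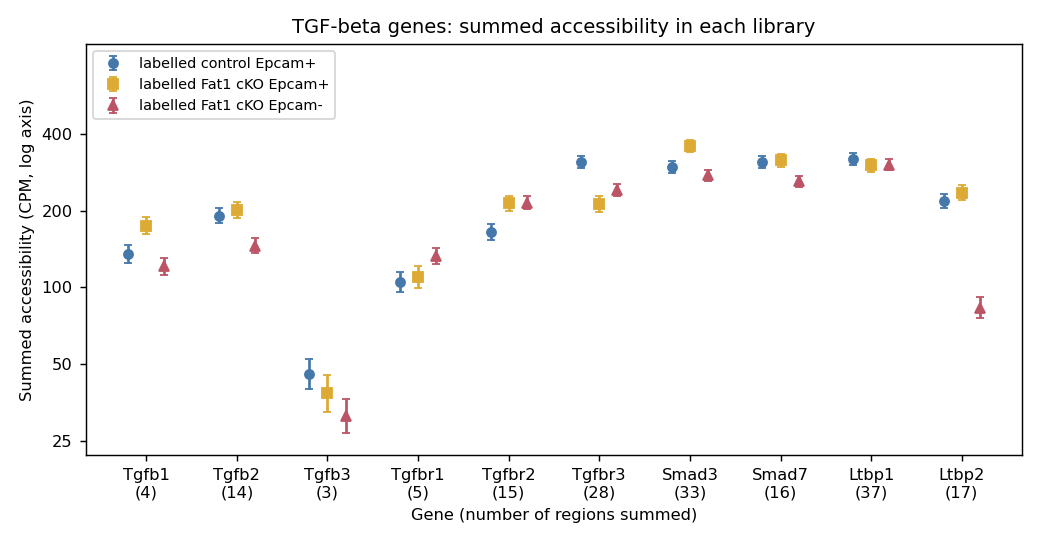
Summed accessibility in CPM (log vertical axis) of each gene in the 3 libraries, with the number of regions summed under each gene name. Bars are exact 95% Poisson intervals and cover counting error only. Ltbp2 stands at 218 and 235 CPM and, under the label Fat1 cKO Epcam-, at 83.5 CPM, and the other genes differ by less than 2-fold.

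Among the ligands, Tgfb1, the main isoform in epidermis and immune cells (NCBI gene ID 21803, chr7:25687002-25705077), had 4 regions that summed to 136, 175 and 121 CPM in the columns labelled control Epcam+, Fat1 cKO Epcam+ and Fat1 cKO Epcam-. This order is kept below, and positions are in mm10, on the chromosome of the gene. The log2 ratios were 0.37, -0.53 and -0.16, and no region passed the size rule. Its start region (25686754-25688362) held 191, 242 and 218 counts, with log2 ratios of 0.64 and -0.73 in the first and second comparisons. At the other end of the gene 25705791-25706255 held 43, 37 and 89 counts. Chromosome 7 as a whole had median log2 ratios of 0.14, -0.49 and -0.31. With those medians set to 0, the ratios of Tgfb1 became 0.22, -0.04 and 0.15, so the third changed sign. The neighbours B9d2 (0.4 kb away) and Ccdc97 (6 kb) had log2 ratios of -0.99 and -0.94 in the second comparison.

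Tgfb2, the isoform that depends most on Tgfbr3 (gene 21808, chr1:186622787-186709697), had 14 regions that summed to 191, 202 and 146 CPM. Its log2 ratios were 0.08, -0.46 and -0.39. The start region (186705094-186706837) held 211, 135 and 223 counts, and its log2 ratios lay between -0.34 and 0.13. Other regions differed more and in both directions. In the first comparison the largest difference was at 186704299-186704640, 1.5 kb from the start, with 29, 8 and 22 counts (log2 ratio -1.39). A region 78.4 kb into the gene (186627216-186628055) held 54, 60 and 15 counts, a log2 ratio of -2.41 (95% interval -3.51 to -1.75) in the second comparison. A larger one 35.6 kb past the far end (186586735-186587675) held 139, 205 and 115 counts, a log2 ratio of -1.40 in the second. By contrast, a region 7.8 kb before the start (186713593-186713992) held 5, 6 and 30 counts, and its log2 ratio in the third comparison was 1.93. Of the 14 Tgfb2 regions tested in the second comparison, 3 were higher (background 23.4%) and 4 lower (16.6%).

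Tgfb3, an isoform known for its part in wound repair and palate fusion (gene 21809, chr12:86056743-86079041), had 3 regions that summed to 45.9, 38.6 and 31.5 CPM. The log2 ratios were -0.25, -0.29 and -0.54. No region passed the rule, and the largest, at a gene end (86078252-86079765), held 151, 92 and 100 counts.

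Among the receptors, Tgfbr1 and Tgfbr2 had even start regions. Some other regions of both genes were higher under Fat1 cKO Epcam-. At Tgfbr2 the share of higher regions was below the background in the second and the third comparison. Tgfbr3 had regions past the rule in both directions in the first and the third comparison, and Tgfbr2 in the third. Tgfbr1, the type I receptor kinase (gene 21812, chr4:47353222-47414926), had 5 regions that summed to 105, 110 and 133 CPM, with log2 ratios of 0.06, 0.27 and 0.34. With the chromosome 4 medians set to 0 they became -0.22, 0.10 and -0.18, so the sign of the first and the third depends on that choice. The start region (47351705-47354178) carried 80.2% of the counts, 388, 361 and 543, with log2 ratios of 0.20, 0.00 and 0.20. A second annotated start had no region. The other 4 regions held 18.3% (exact 95% interval 14.9 to 22.1), 10.4% (7.61 to 13.8) and 25.9% (22.8 to 29.3) of the gene's counts. The last of these shares is the highest, and the 3 intervals do not overlap. Of those 4 regions, 3 passed the rule upward in the second and the third comparison (backgrounds away from gene ends 27.4% and 30.5%). They held 20, 12 and 73 counts (47406735-47407840, 54.1 kb into the gene), 13, 2 and 45 (47440855-47441255) and 2, 1 and 20 (47424562-47425040). For the second of them, with 2 counts in the column labelled Fat1 cKO Epcam+, the log2 ratio was 3.13 (95% interval 1.97 to 6.99). Without the start region the log2 ratios of Tgfbr1 were -0.73, 1.55 and 0.83. The chromosome 4 medians, 0.28, 0.17 and 0.52, were not taken off these ratios or those of single regions.

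Tgfbr2, the type II receptor that binds the ligand first (gene 21813, chr9:116087695-116175363), had 15 regions that summed to 165, 214 and 215 CPM, with log2 ratios of 0.37, 0.01 and 0.39. The start region (116174279-116176088), over the window printed above, held 210, 190 and 276 counts, and its log2 ratios were 0.16, -0.05 and 0.11. Of the tested Tgfbr2 regions, 3 of 12 were higher and 0 lower in the first comparison (backgrounds 17.6% and 15.5%). The second gave 2 of 13 higher and 0 lower (23.4% and 16.6%), and the third 3 of 13 higher and 1 lower (26.7% and 18.7%). Before the start, the regions at 43.8 and 46.7 kb had their highest CPM under Fat1 cKO Epcam+ (20.5 and 12.6). Some others there were higher in the column labelled Fat1 cKO Epcam-. One at 33.0 kb (116207738-116208934) held 34, 18 and 135 counts, with log2 ratios of 2.22 (95% interval 1.60 to 3.12) in the second comparison and 1.65 in the third. Another at 18.4 kb (116193029-116194519) held 34, 33 and 107 counts, with 1.07 and 1.32. The outermost, at 48.3 kb (116223281-116223989), held 37, 68 and 117 counts and was past 2-fold in the first and the third comparison only. A region 76.2 kb into the gene (116098645-116099749) went the other way, with 42, 28 and 23 counts. The region at the far gene end (116087160-116087628) held 37, 16 and 29 counts, and one 3.0 kb past that end (116084280-116085134) held 37, 83 and 63, the largest difference of the first comparison (log2 ratio 1.42).

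Tgfbr3, the co-receptor betaglycan (gene 21814, chr5:107106567-107289629), had 28 regions that summed to 311, 212 and 240 CPM. Its log2 ratios were -0.55, 0.18 and -0.37, the lowest of the 10 genes in the first comparison. Of 18 regions tested in that comparison, 7 were lower (background 15.5%) and 1 was higher (17.6%). In the second 5 of 17 were higher (23.4%) and 0 lower (16.6%), and in the third 4 of 22 were higher (26.7%) and 6 lower (18.7%). The region with the largest count among them (107087075-107088313, 18.9 kb outside the gene) held 204, 65 and 107 counts, log2 ratios of -1.33 in the first comparison and -1.20 in the third. In the small region 107098189-107098532 the counts were 31, 7 and 1, and the log2 ratio in the third comparison was -3.56 (95% interval -10.59 to -2.66). Among regions with 1 count in a library, 107116779-107117453 held 22, 1 and 5 counts (log2 ratio -2.90 in the first comparison, 95% interval -9.52 to -1.53), and 107147975-107148570 held 20, 1 and 32 (3.13 in the second, 1.83 to 9.76). Some regions were highest in the column labelled Fat1 cKO Epcam-: 107295066-107296366, 6.1 kb beyond a gene end, held 43, 34 and 133 counts, and 107153075-107153347 held 7, 7 and 37. The region at that gene end (107288501-107289917) held 169, 98 and 228 counts and did not pass 2-fold (log2 ratios -0.48, 0.62 and 0.14).

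Smad3, the transcription factor that carries the signal to the nucleus (gene 17127, chr9:63646766-63757994), had 33 regions that summed to 297, 359 and 275 CPM, with log2 ratios of 0.28, -0.38 and -0.11. Its start region (63757364-63758861) held 180, 144 and 205 counts, and its 3 log2 ratios lay between -0.10 and -0.02. The region at the other gene end (63645691-63646269) held 7, 21 and 21 counts. The regions of Smad3 were divided. In the first comparison 9 of 25 tested were higher (background 17.6%) and 3 lower (15.5%). The second gave 3 of 27 higher (23.4%) and 6 lower (16.6%), and the third 6 of 27 higher (26.7%) and 6 lower (18.7%). A region 13.0 kb from the start (63744833-63745205) held 7, 40 and 71 counts, with log2 ratios of 2.51 (95% interval 1.64 to 4.22) in the first comparison and 2.74 in the third. The next one, at 14.0 kb (63743783-63744175), held 55, 46 and 20 counts, and its log2 ratio in the third comparison was -1.63. Lower in the column labelled Fat1 cKO Epcam- were 63666971-63667700 (24, 53 and 7 counts, log2 ratio -3.12 in the second comparison) and 63726314-63726927 (42, 70 and 13 counts, log2 ratio -2.80). Opposite directions therefore occur between adjacent regions of this gene.

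**Figure D3:**
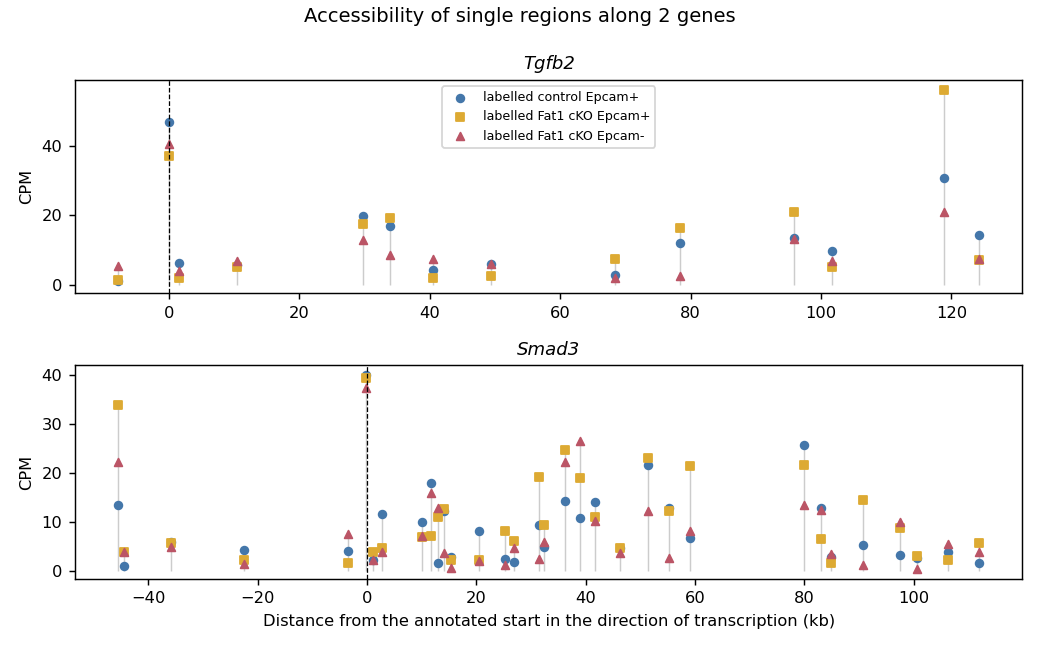
CPM (vertical axis) of each region of Tgfb2 and Smad3 in the 3 libraries, against the distance in kb from the annotated start in the direction of transcription (horizontal axis). The dashed line is the start and grey lines reach the highest of the 3 values. Markers lie close together at the starts and, relative to their level, spread apart within both genes, with the Fat1 cKO Epcam- marker lowest at some regions and highest at others.

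Smad7, the inhibitory Smad (gene 17131, chr18:75367365-75395935), had 16 regions that summed to 311, 315 and 261 CPM, with log2 ratios of 0.02, -0.27 and -0.25. The region with the most counts (75342179-75343548, 24.5 kb outside the gene) carried 23.8% of them, 386, 269 and 294, with log2 ratios of -0.22, -0.46 and -0.68. At a gene end the region 75366430-75367863 held 275, 226 and 286 counts and was near even. In the first comparison 1 of 11 tested regions was higher (background 17.6%), 75384713-75385353, with 34, 79 and 90 counts (log2 ratio 1.47). In the second comparison 2 of 13 were higher (23.4%) and 3 lower (16.6%), and in the third 3 of 13 were higher (26.7%) and 3 lower (18.7%). The region 75411740-75412484 held 8, 9 and 68 counts, with log2 ratios of 2.14 and 2.53. On the other side of the gene 75353421-75354277 held 105, 58 and 21 counts, with -1.94 and -2.48. The gene sum averages these opposite differences.

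Ltbp1, which tethers latent TGF-beta to the matrix (gene 268977, chr17:75005480-75392512), had 37 regions that summed to 319, 302 and 303 CPM. Its log2 ratios of -0.08, 0.01 and -0.07 were even, yet the balance between its starts was not. The upstream start (75004974-75006573) held 116, 81 and 225 counts, and the downstream start 173.3 kb away (75178034-75179440) held 181, 130 and 124. The upstream start took 39.1% (exact 95% interval 33.5 to 44.9) and 38.4% (31.8 to 45.3) of the counts at both starts in the first and second libraries, and 64.5% (59.2 to 69.5) in that labelled Fat1 cKO Epcam-. The last interval lies above the others. Neither start passed 2-fold alone. Inside the gene, between the starts, 75046765-75047358 held 9, 3 and 88 counts, with log2 ratios of 3.71 (95% interval 2.69 to 6.59) in the second comparison and 2.75 in the third. Near it 75033193-75034473 held 40, 12 and 99 counts. Beyond the downstream start 75250766-75251526 held 61, 8 and 14 counts, highest in the column labelled control Epcam+. Also beyond it, 75304822-75305856 held 40, 17 and 90 counts. Between the starts, 75112881-75113245 held 53, 35 and 30. Of the tested Ltbp1 regions, 2 of 19 were higher and 5 lower in the first comparison (backgrounds 17.6% and 15.5%). The second gave 5 of 20 higher and 3 lower (23.4% and 16.6%). The third gave 5 of 22 higher and 5 lower (26.7% and 18.7%). The region with the most counts (75110228-75111448) held 286, 284 and 286 counts, with log2 ratios of 0.29, -0.57 and -0.28.

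Ltbp2, a matrix protein associated with elastic fibres (gene 16997, chr12:84783212-84876558), was the gene that differed as a whole. Its 17 regions summed to 218, 235 and 83.5 CPM, 2.80-fold lower in the column labelled Fat1 cKO Epcam- than in that labelled Fat1 cKO Epcam+ (log2 ratio -1.49, 95% interval -1.66 to -1.33) and 2.60-fold lower than in that labelled control Epcam+ (-1.38, -1.55 to -1.22). The first comparison gave 0.11 (-0.02 to 0.24). In the second comparison 9 of 13 tested Ltbp2 regions were lower (background 16.6%) and 0 higher (23.4%). In the third 9 of 14 were lower (18.7%) and 1 higher (26.7%). The difference was under 2-fold at the start itself (84875834-84877097), which held 130, 109 and 84 counts (log2 ratios -0.94 and -0.90). That start region is also what remains of the gene when only regions within 1 kb of a gene end are summed.

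The largest Ltbp2 region (84846230-84848002, 29.4 kb into the gene) held 218, 179 and 60 counts, with log2 ratios of -2.12 and -2.10 in the second and the third comparison. All 4 regions just before the start were lower by the rule in both comparisons: 84879817-84880694 held 80, 32 and 19 counts, 84881088-84881732 held 54, 27 and 12, 84884707-84885707 held 92, 70 and 37, and 84890004-84890892 held 60, 83 and 22. Not every region followed this order. The region 84827296-84828098, 48.8 kb into the gene, held 30, 97 and 42 counts, with log2 ratios of 1.93 in the first comparison and -1.74 in the second. The largest difference of the first comparison was at 84805378-84806038, with 9, 45 and 19 counts (log2 ratio 2.39, 95% interval 1.57 to 3.84).

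Over all regions of chromosome 12, the median log2 ratios were 0.24 and 0.28 in the second and the third comparison. The neighbouring genes differed from each other: Isca2, 8.1 kb away, had log2 ratios of -0.35 and -0.26, and Arel1, 41.6 kb away on the side of the start, had -1.62 and -0.88. Fibroblast and pericyte markers, 11 of 12 with a region and none of these at 0 in any library, summed to 605, 480 and 273 CPM. In the second comparison 3 of 10 were lower and 0 higher (6.28% of all genes were lower), with a median log2 ratio of -0.63. In the third 4 of 11 were lower and 0 higher (6.11% of all genes were lower), with a median of -0.89, and 7 did not pass the rule. Their part in the Ltbp2 result was not tested. Epithelial markers, 12 of 12 with a region, summed to 521, 1507 and 1421 CPM. In the first and in the third comparison 9 were higher and 0 lower, and in the second 1 was higher and 0 lower. Over all genes, 7.19%, 9.50% and 12.4% were higher in the 3 comparisons, and 4.28%, 6.28% and 6.11% lower. Immune markers (8 of 14 with a region) summed to 134, 124 and 104 CPM, and endothelial markers to 611, 644 and 507 CPM. Of the tested immune markers, 0 were higher in any comparison, and 1 of 8, 0 of 7 and 2 of 8 were lower. Of 10 endothelial markers, 0, 1 and 1 were higher and 2, 1 and 1 lower. The shares over all genes are those given for the epithelial markers. The endothelial median log2 ratios were -0.47, 0.39 and -0.17 in the 3 comparisons, opposite to the sum in the first and the second. Flt1 alone held 215, 294 and 144 CPM of that sum.

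**Figure D4:**
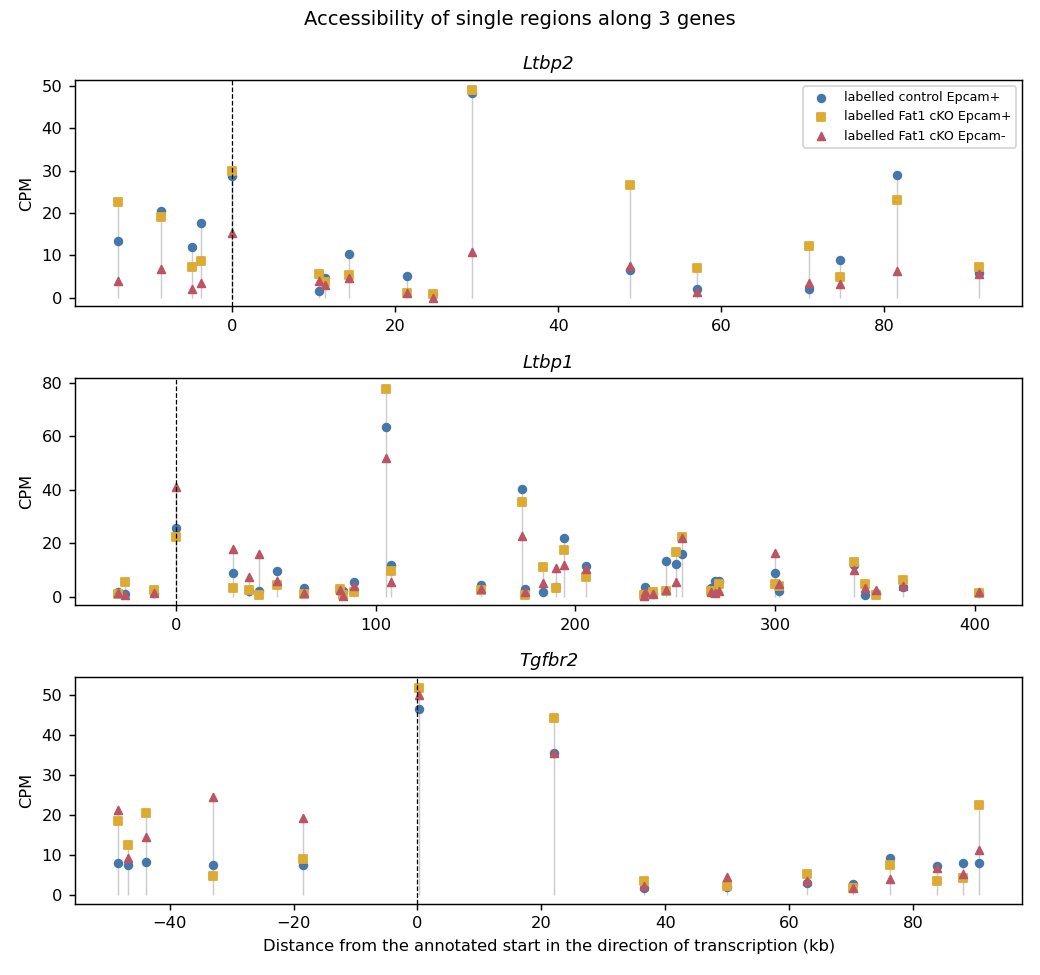
CPM (vertical axis) of each region of Ltbp2, Ltbp1 and Tgfbr2 in the 3 libraries, against the distance in kb from the annotated start in the direction of transcription (horizontal axis; dashed line, start). At Ltbp2 the Fat1 cKO Epcam- marker is lowest at the large region 29.4 kb into the gene, and at Tgfbr2 it is highest at the region 33.0 kb before the start.

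Some regions differed by 2-fold or more between 1 library and both others. Of the 141 TGF-beta regions with at least 20 counts in 1 library, 15 (10.6%) were at least 2-fold lower in the column labelled Fat1 cKO Epcam- than in both others, where 6.88% of all regions were. These were 6 at Ltbp2, 4 at Smad3, 3 at Smad7 and 1 each at Tgfb2 and Ltbp1. Regions high only in that library numbered 14 (9.93%, background 14.6%): 3 each at Tgfbr1, Tgfbr3 and Ltbp1, 2 each at Tgfbr2 and Smad7, and 1 at Tgfb2. High only in the column labelled control Epcam+ were 10 (7.09%, background 7.51%), 5 of them at Tgfbr3, and high only in that labelled Fat1 cKO Epcam+ were 10 (7.09%, background 6.29%), 4 of them at Smad3. Low only in the column labelled control Epcam+ were 9 (6.38%, background 6%), and low only under Fat1 cKO Epcam+ were 4 (2.84%, background 3.04%).

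Beyond the 10 genes, 67 other genes of the pathway were listed, and 65 of them had a region. In the first comparison 0 of 64 were higher (7.19% of all genes) and 3 lower (4.28%): Emilin1, which restrains the processing of the TGF-beta precursor (44.4, 10.4 and 6.91 CPM, log2 ratio -2.05), Cdkn2b, a cell cycle inhibitor induced by TGF-beta (-1.05), and the collagen gene Col1a2 (-1.24). The second comparison had 4 higher (9.50% of all genes) and 4 lower (6.28%) of 65. Higher were Cdkn2b (2.38), the BMP signal transducers Smad9 (1.60) and Smad1 (1.06), and Nrros, which anchors latent TGF-beta on myeloid cells (1.57, from 1 region). Lower were Timp1 (-1.72, from 1 region with 26, 43 and 18 counts), Col1a2 (-1.46), Fbn1 (-1.31) and Postn (-1.07), which encode an inhibitor of metalloproteinases and matrix proteins.

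In the third comparison 4 of 65 were higher (12.4% of all genes) and 6 lower (6.11%). Fbn1, which encodes the microfibril protein fibrillin-1 to which latent TGF-beta binding proteins attach, summed to 160, 154 and 62.2 CPM (log2 ratio -1.36). Col1a2 summed to 150, 63.4 and 22.7 CPM (-2.70). The other lower genes were Emilin1 (-2.61), Lrrc32, which displays latent TGF-beta on the cell surface (-1.69), Dcn, a proteoglycan that binds TGF-beta (-1.39), and Snai1, a repressor of Cdh1 (-1.06). Higher were Nrros (1.39), Cdkn2b (1.33), Bambi, a receptor without a kinase domain that dampens signalling (1.10), and Smad9 (1.05). No list was tested as a whole.

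**Figure D5:**
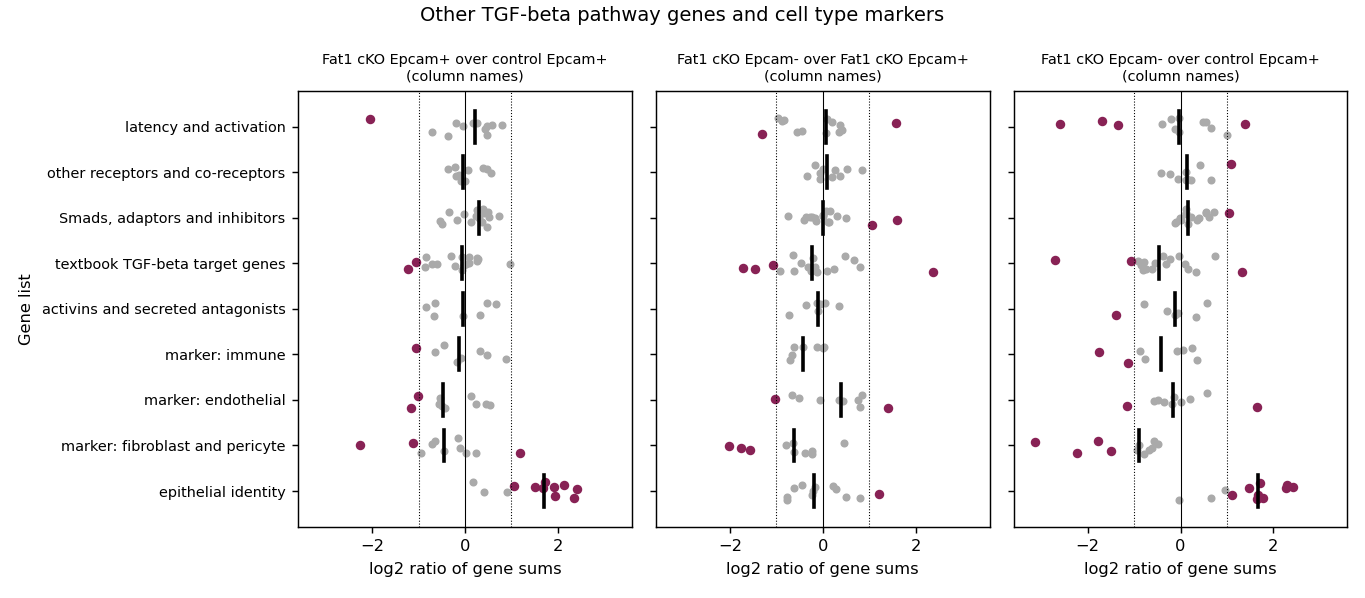
Log2 ratios of gene sums (horizontal axis) for the other pathway lists and the marker lists (vertical axis) in the 3 comparisons of column names. Each point is a gene, dark points are past 2-fold, black bars are list medians and dotted lines mark 2-fold. Epithelial markers lie to the right in the first and the third panel, with medians of 1.70 and 1.67.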

How the data were processed

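The deposited table gives raw counts and yes or no peak calls (other values) by library for merged regions. The submitters' processing notes name the build GRCm38 (mm10) and, without saying what each did, MACS2 2.1.0.20151222, Picard, SAMtools and Bowtie2 2.2.6. How reads were counted and filtered, any Tn5 shift, the peak threshold and the base of the coordinates (0 or 1) are not stated there, so positions are printed as deposited.

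Columns were matched to libraries by name. Mitochondrial regions were left out. Gene positions came from RefSeq (GRCm38.p6). This table gives no exons, so positions are given as inside or outside a gene body. CPM used TMM effective sizes (edgeR 4.0.16, factors 1.04, 0.959 and 1.00). Log2 ratios used a prior count of 2 and were computed in Python 3.11.15. The prior count pulls the ratios of small counts towards 0. Intervals are 95% Clopper-Pearson (ratios, shares) or exact Poisson (counts). They cover counting error only, and PCR copies of a molecule cannot be told apart without molecular identifiers. A count of 0 allows up to 3 counts, or 0.665, 0.820 and 0.545 CPM in the 3 libraries. The ratio code was checked on simulated counts. Alternatives were other scalings (DESeq2 1.42.0 size factors, total counts, chromosome medians), priors, filters and assignments.

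The genes and lists were chosen with earlier results of these data known. All 10 genes are described, with each gene's largest region, its regions at starts and gene ends, and its largest change in each comparison. The other lists were pathway genes in 5 groups, of which up to 3 highest and 3 lowest genes past 2-fold are named per list and comparison, and 4 sets of cell type markers, given by counts and sums.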

Additional observations from a re-analysis of the deposited data

Results flagged for a closer look

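The 2 mitochondrial regions, which no comparison used, held 39.1%, 42.6% and 41.0% of all counts in the columns labelled control Epcam+, Fat1 cKO Epcam+ and Fat1 cKO Epcam-. These shares were looked at again because the signal lies in data outside the nuclear regions.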

How the results depend on the processing

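No paired analysis was possible because each group is 1 library. Over 12 counts of regions or genes past 2-fold and 10 alternatives each, 107 of 120 values stayed within 1.5 times. The other 13 come from 2 assignments with fewer regions. Using only regions within 1 kb of a gene end, 1 region was higher and 0 lower in the first comparison, 0 and 0 in the second, and 1 and 0 in the third, and 0 gene sums were lower in the second and the third comparison, since Ltbp2 was then at -0.94 and -0.90. Using only regions inside gene bodies, 13 regions were higher and 16 lower in the second comparison and 15 higher in the third comparison, and 1 gene sum was higher in each: Tgfbr1, at 1.88 and 1.49, from 1 region. Of 297 log2 ratios of the 10 genes under the alternatives, 241 moved by less than their counting interval and 56 by more, 18 of these with chromosome medians set to 0. Ltbp2 was then at -1.73 and -1.66. Scaling by total counts moved the median of all regions by -0.11, 0.06 and -0.05 in the 3 comparisons. Regions of few counts have wide intervals, and without replicates the spread between tumours is unknown.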

Other observations

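The profile of Ltbp2 over the 3 libraries was shared by few genes. Among 8745 genes with at least 100 counts and 3 regions, 31 lay within a root mean square difference of 0.1 log2 units from it, against 239 for Tgfbr3 and 455 to 914 for the other 8 genes. Fewer genes lie within a fixed limit where ratios are large, so the low number largely restates the size of the Ltbp2 ratios. Genes with ratios of equal size were not compared. The closest were Mill2 and Sytl5 for Ltbp2, Git1 and Stab1 for Tgfb1, Igf2bp2 and Atp6v0a1 for Tgfb2, St6gal1 and Dctn1 for Tgfb3, Rapgef2 and Rala for Tgfbr1, Gab1 and Dnah7c for Tgfbr2, Map4k5 and Cep152 for Tgfbr3, Rgma and Glis2 for Smad3, D5Ertd579e and B3gntl1 for Smad7, and Ptprc and Mapkapk2 for Ltbp1. With 3 libraries such likeness rests on 3 values per gene.

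Beyond 50 kb, 42 more regions had one of the 10 genes as the nearest, up to 242.6 kb away: 19 at Tgfb2, 19 at Tgfbr2, 3 at Smad3 and 1 at Tgfbr3. The region just inside the limit, at Tgfbr2, held 37, 68 and 117 counts in the libraries labelled control Epcam+, Fat1 cKO Epcam+ and Fat1 cKO Epcam-, and the one just outside, at Tgfb2 (54.1 kb), held 23, 13 and 13. In the same order, a region 108.7 kb from Tgfbr2 held 7, 55 and 90 counts. Of these outer regions, 6 were higher and 2 lower of 29 in the first comparison, 5 and 8 of 30 in the second, and 8 and 8 of 33 in the third. Over all regions within 50 kb of a gene the shares were 17.6% higher and 15.5% lower, 23.4% and 16.6%, and 26.7% and 18.7%.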
